A study of Homo sapiens with 6 samples.

Results

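The transcripts of 10 genes of the NF-κB pathway and of leukocyte recruitment were followed in OE-19 cells, an established line from adenocarcinoma of the esophagogastric junction (AEG), with and without knockdown (KD) of IGF2BP3. The genes were the chemokines *CXCL1*, *CXCL2*, *CXCL3*, *CXCL8*, *CXCL16* and *CCL20*, the cytokine *IL18*, and the feedback genes *NFKBIA*, *TNFAIP3* and *BIRC3*. They were chosen by symbol among the 60480 gene identifiers of the count table, and all 10 were found and passed the filter on low counts with 19778 genes in all. The control group held 3 libraries titled shControl, a control shRNA by that label, which the count table names Puro. The IGF2BP3 KD group held 3 libraries of cells with an shRNA against IGF2BP3 (shIGF2BP3). Both groups grew in RPMI1640 with 10% fetal bovine serum, poly(A) RNA was sequenced, and no inflammatory stimulus is named for either group. The sources used here do not say which shRNA each IGF2BP3 KD library carried, nor whether the libraries came from separate cultures, so the p-values measure the spread between these libraries, which may be technical. In these bulk libraries, fewer cells with a transcript and less of it per cell cannot be told apart.

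NF-κB is a family of dimeric transcription factors held in the cytoplasm by IκB proteins. Signals from TNF, IL-1 and Toll-like receptors activate a kinase that marks IκB for destruction, and the freed dimer enters the nucleus and switches on chemokines, cytokines and survival genes. It also switches on its own inhibitors, among them IκBα, the product of *NFKBIA*, and A20, the product of *TNFAIP3*. Many of these messages are short-lived, because AU-rich elements in their 3′ UTRs recruit proteins that speed their decay. IGF2BP3 is an RNA-binding protein and an m6A reader known to stabilize bound transcripts, so the comparison asks how these transcripts stood after its knockdown.

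The promoters show what several of these genes share in sequence. RefSeq promoters of GRCh38.p14, from 250 bases before to 50 bases after the start, were at hand for 8 of the 10 genes (*CXCL16* and *IL18* had no entry). A match to the κB consensus, on either strand, was present in 7 of the 8 (87.5%) and in 3956 of 35116 promoters overall (11.3%). A high share follows from choosing known NF-κB genes, so it is not independent support. *CXCL1*, *CXCL2* and *CXCL3* have near-identical windows and are not separate instances. The sequences below are on the strand of the gene, with the matching letters in capitals. For *CXCL8* the capitals mark the word GGAATTTCC, chosen after these promoters were read.
CXCL1: ctggaactccGGGAATTTCCctggcccggg
CXCL2: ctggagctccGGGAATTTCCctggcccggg
CXCL3: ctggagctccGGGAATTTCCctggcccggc
CXCL8: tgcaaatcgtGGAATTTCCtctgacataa
CCL20: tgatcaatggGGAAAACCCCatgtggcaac
NFKBIA: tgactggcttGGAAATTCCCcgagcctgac
TNFAIP3: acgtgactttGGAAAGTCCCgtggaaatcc
BIRC3: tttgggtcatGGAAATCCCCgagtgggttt
The windows of *CXCL1* (chr4:73869304-73869333, plus strand), *CXCL2* (chr4:74099254-74099283, minus strand) and *CXCL3* (chr4:74038749-74038778, minus strand) carry the same 10 letters, 79, 78 and 79 bases before the start, and the same site also matches on its other strand 1 base further. The *CXCL8* window (chr4:73740468-73740496, plus strand) has its word 91 bases before the start. The matches of *CCL20* (chr2:227813753-227813782, plus strand), *NFKBIA* (chr14:35404811-35404840, minus strand), *TNFAIP3* (chr6:137867182-137867211, plus strand) and *BIRC3* (chr11:102317275-102317304, plus strand) lie 79, 81, 67 and 199 bases before the start. *TNFAIP3* and *BIRC3* each hold another match, 55 and 135 bases before the start. The start meant here is that of RefSeq, which can differ from the GENCODE v44 gene start given below. It differs for *CXCL3*, *CXCL8*, *CCL20* and *TNFAIP3*, among others, and the *CCL20* window lies inside its GENCODE gene. GGAATTTCC on either strand was present in 5 of the 8 promoters, those of the 4 clustered chemokines and of *NFKBIA*, and in 162 of all 35116 (0.461%). A match of letters is a description and does not show that a factor was bound.

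The 3′ UTRs share AU-rich words. The pentamer ATTTA, the core of AU-rich elements, was present in 9 of the 10 genes, all but *IL18*, and in 71.6% of 13753 tested coding genes with a 3′ UTR of at least 50 bases. The median number of copies was 5.5 in the 10 genes and 2 in the coding genes, and the median density was 6.17 against 1.62 per kb. The densest stretch of 30 bases is shown for the clustered chemokines and for the genes that passed the test below, with each ATTTA in capitals.
CXCL2: aagtcttctATTTATTTATTTATTTATTTA
CXCL8: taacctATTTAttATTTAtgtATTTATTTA
CXCL1: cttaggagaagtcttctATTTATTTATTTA
CXCL3: ttacgagggttctacttATTTAtgtATTTA
BIRC3: acttaacaaATTTATTTAatcacagATTTA
NFKBIA: ctaaaaaaagaaaaaagaagaaaaaATTTA
*CXCL2* had the highest density of the 10, with 10 copies in 716 bases (14 per kb), and *BIRC3* the most copies, 12 in 2301 bases. *CXCL1* held 6 copies, *CXCL3* 7, *CXCL8* 9, *TNFAIP3* 5, *NFKBIA* and *CCL20* 3 each, and *CXCL16* 1. *NFKBIA* and *BIRC3*, the genes that passed the test in opposite directions below, both hold the word. Among all tested coding genes the median log2 fold change was -0.01 with ATTTA and 0.02 without it. By the test below, 1656 (16.8%) of the 9842 coding genes with ATTTA were lower and 1316 (13.4%) were higher. Of all 13753, with or without the word, 1990 were lower and 1803 higher. Thus 1656 of the 1990 lower and 1316 of the 1803 higher genes held the word, where 71.6% of all 13753 hold it. The lower genes held it more often than the coding genes as a whole. Whether the word itself accounts for these counts was not tested.

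Total counts were 53424071 to 69989087 per library. *IGF2BP3* (ENSG00000136231), the target, fell from 108 ± 2.92 CPM (counts scaled to library size by TMM, mean ± SD, n = 3) in control to 13.3 ± 0.996 CPM in IGF2BP3 KD cells. On the log2 scale this was a fold change of -3.03 (standard error, SE, 0.06). The 8 epithelial markers were all present, summing to 6253 to 6344 CPM in control and 6217 to 6341 CPM in IGF2BP3 KD libraries. Of 7 leukocyte markers, CD3E was at 0 in every library and PTPRC stayed under 0.1 CPM on average, while *LYZ* made up most of the list's sum of 2506 to 2734 CPM in control and 2543 to 2616 CPM in IGF2BP3 KD libraries. Fibroblast markers summed to 21.2 to 24.5 CPM in control and 29.9 to 34.4 CPM in IGF2BP3 KD libraries, nearly all from *COL1A1*, with *COL1A2* and *LUM* at 0. *COL1A1* (21.7 and 30.8 CPM) and *CD68* of the leukocyte list (35.8 and 51.9 CPM) were higher in IGF2BP3 KD cells. OE-19 is an established line, which the authors report as verified by short tandem repeat assays. A part of other cell types in the results below was not tested. Endothelial markers summed to at most 0.563 CPM.

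Most of the 10 genes did not pass the test of IGF2BP3 KD against control, which does not show that they were unchanged. *NFKBIA* was lower and *BIRC3* was higher by the quasi-likelihood test of edgeR (adjusted by Benjamini-Hochberg over all tested genes), and 8 genes did not pass at 0.05. Thus 1 of 10 was lower, where 10.6% of all tested genes were lower, and 1 of 10 was higher, where 9.87% of all tested genes were higher. The median log2 fold change of the 10 was -0.13, beside 0.01 for all tested genes. Without overlap between the groups, 3 genes lay lower in IGF2BP3 KD (*CXCL2*, *CXCL8* and *NFKBIA*), where 17.8% of all tested genes did so, and 2 lay higher (*CXCL16* and *BIRC3*), where 18.0% did so. The summed level of the 10 genes was 112 to 114 CPM in control and 113 to 117 CPM in IGF2BP3 KD libraries. The counts of called genes among the 10 are near the shares over all tested genes, while the direction and size of the change differ from member to member.

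**Figure D1:**
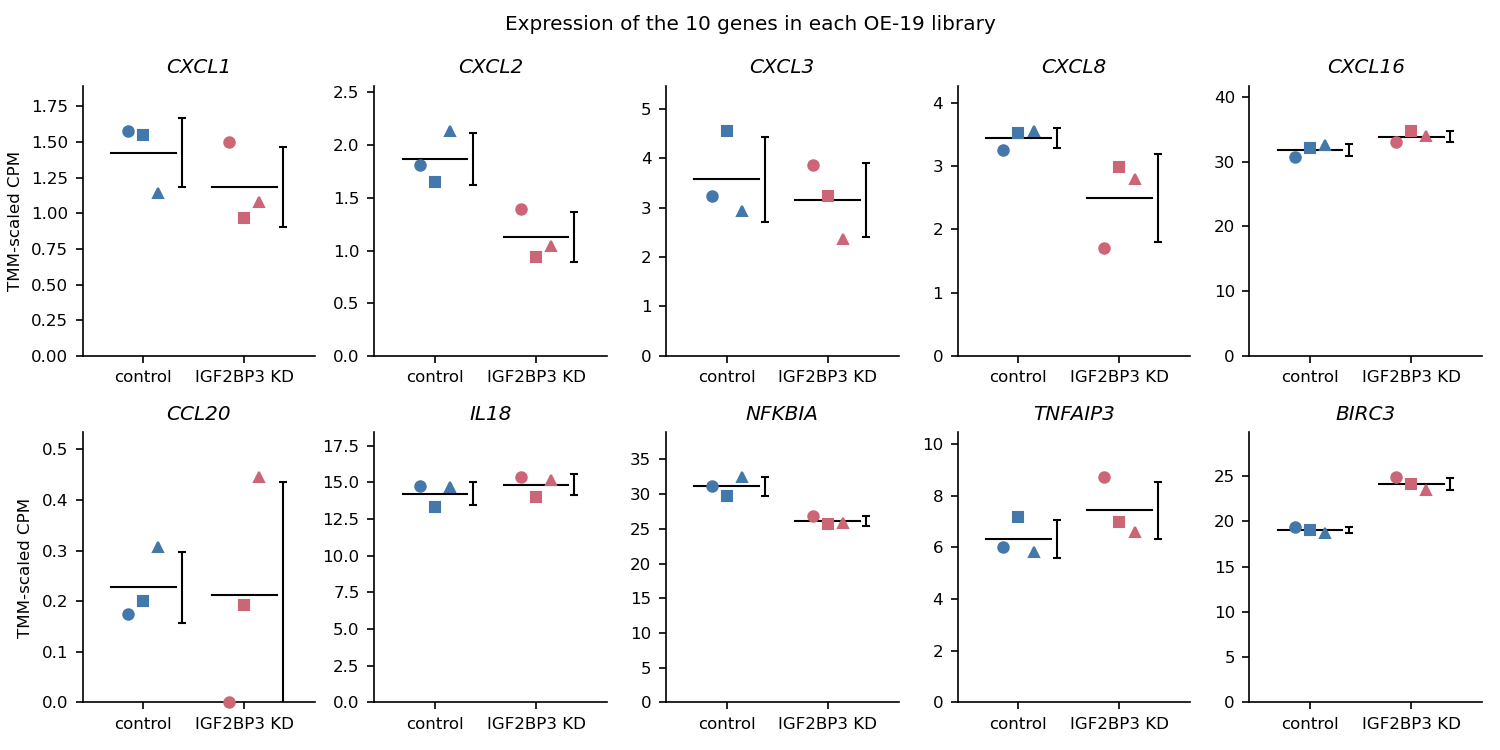
TMM-scaled CPM (y axis, from 0) of each of the 10 genes in the 3 control (blue) and 3 IGF2BP3 KD (red) libraries. Circles, squares and triangles are replicates 1, 2 and 3, horizontal lines are means and the bars beside them are ± SD (the lower end for CCL20 in IGF2BP3 KD is cut off at 0). NFKBIA separates downwards (31.1 against 26.1 CPM) and BIRC3 upwards (19.0 against 24.1 CPM), while CCL20 in IGF2BP3 KD runs from 0 to 0.444 CPM.

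The control levels of the 10 genes spanned a wide range, and their order depended on the length used. Per kb of all annotated exons of a gene together, *CXCL16* was highest at 11.4 ± 0.353 CPM per kb (SD, n = 3), followed by *NFKBIA* at 9.17 ± 0.397, *IL18* at 5.46 ± 0.309 and *BIRC3* at 2.54 ± 0.0467 CPM per kb. Per kb of 1 transcript per gene, a length tried after the data were seen, *NFKBIA* was highest at 19.96 ± 0.865 CPM per kb, followed by *CXCL16* at 13.7 ± 0.424 and *IL18* at 12.8 ± 0.721. *CXCL3* (3.32) and *BIRC3* (2.76 CPM per kb) came next on that scale, with overlap between libraries. On either scale *CXCL1*, *CXCL2*, *CXCL8* and *TNFAIP3* had lower means, at 0.982 to 1.33 CPM per kb of exons and 1.21 to 2.10 CPM per kb of transcript. *CCL20* was lowest on both, at 0.143 ± 0.0439 and 0.273 ± 0.084 CPM per kb, and its control libraries lay under those of all the others. The neutrophil chemokines had few reads in both groups, from 58 to 317 counts per library, and the counting error is correspondingly larger than for *CXCL16*, *NFKBIA*, *IL18* and *BIRC3*, which had 827 or more.

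*CXCL1*, *CXCL2*, *CXCL3* and *CXCL8* encode chemokines that attract neutrophils through the receptors CXCR1 and CXCR2. On hg38 they lie in 1 cluster on chromosome 4, with *CXCL8* (ENSG00000169429, 73740519 to 73743716, plus strand), *CXCL1* (ENSG00000163739, 73869393 to 73871308, plus strand), *CXCL3* (ENSG00000163734, 74036589 to 74038807, minus strand) and *CXCL2* (ENSG00000081041, 74097040 to 74099196, minus strand). The stretch from *CXCL8* to *CXCL2* covers 359 kb and holds 9 coding genes of GENCODE v44. The other 5, *CXCL6*, *PF4V1*, *PF4*, *PPBP* and *CXCL5*, had no count in any library except 1 count of *CXCL5* in IGF2BP3 KD replicate 3, and none was tested. Transcripts of the cluster in OE-19 cells were therefore detected from these 4 genes, with the exception of that single count.

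**Figure D2:**
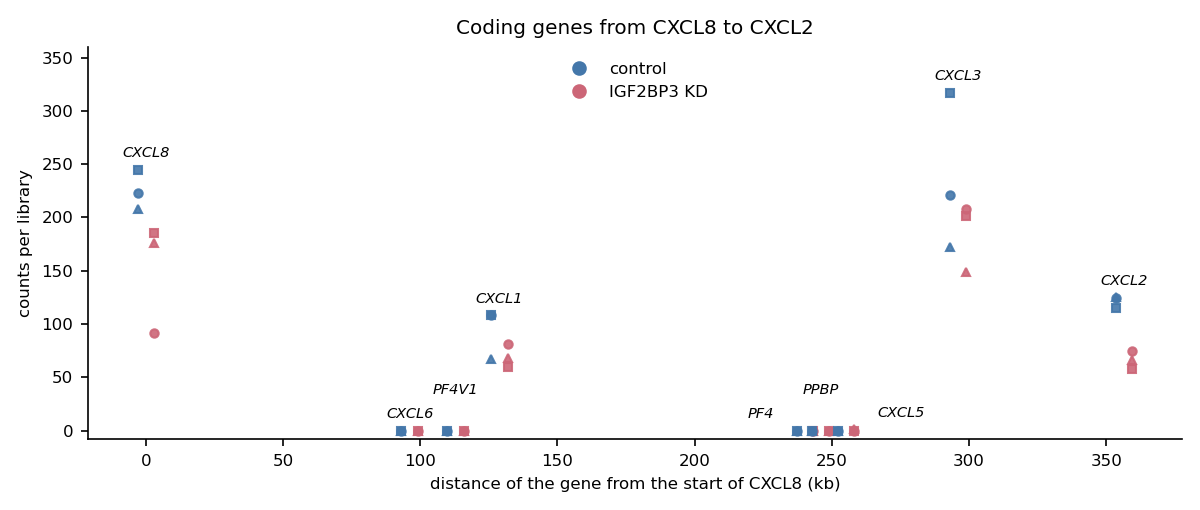
Counts per library (y axis) of the 9 coding genes between CXCL8 and CXCL2, placed by the distance of their lowest coordinate from that of CXCL8 in kb (x axis), with control libraries (blue) set slightly left and IGF2BP3 KD libraries (red) slightly right of the position. Circles, squares and triangles are replicates 1, 2 and 3. CXCL8, CXCL1, CXCL3 and CXCL2 carry counts of 58 to 317, and the 5 genes between them carry 0 or 1.

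*CXCL2* (GROβ) was read 124, 115 and 125 times in control replicates 1, 2 and 3, which gave 1.81, 1.65 and 2.13 CPM. In IGF2BP3 KD replicates 1, 2 and 3 it had 75, 58 and 66 counts, or 1.39, 0.934 and 1.05 CPM. Every IGF2BP3 KD library lay under every control library. The means were 1.87 ± 0.246 and 1.12 ± 0.237 CPM (SD, n = 3), and the log2 fold change of -0.73 (SE 0.25, 95% interval -1.27 to -0.19) was the largest in size among the 10. It did not pass edgeR's quasi-likelihood test (adjusted p = 0.0589). It passed with a filter of at least 10 counts in every library (adjusted p = 0.0453), which tests 17116 genes, and without IGF2BP3 KD replicate 1, its highest IGF2BP3 KD library (log2 fold change -0.91, adjusted p = 0.0419).

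*CXCL8* encodes interleukin 8. Control replicates 1, 2 and 3 held 223, 245 and 208 of its counts, and IGF2BP3 KD replicates 1, 2 and 3 held 92, 185 and 176. In CPM these were 3.26, 3.52 and 3.55 in control and 1.7, 2.98 and 2.79 in IGF2BP3 KD. The groups did not overlap, but IGF2BP3 KD replicate 1 stood far under the other two. The coefficient of variation was 4.69% in control and 27.6% in IGF2BP3 KD. The log2 fold change was -0.46 (SE 0.22, 95% interval -0.95 to 0.02, adjusted p = 0.182 by the same edgeR test), and it ranged from -0.61 to -0.26 when 1 library at a time was left out.

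*CXCL1* (GROα) had 108, 108 and 67 counts in control and 81, 60 and 68 counts in IGF2BP3 KD libraries, or 1.58, 1.55 and 1.14 against 1.5, 0.966 and 1.08 CPM. Control replicate 3 lay among the IGF2BP3 KD libraries, and the groups overlapped. The log2 fold change was -0.27 (SE 0.27, 95% interval -0.86 to 0.32), and it ranged from -0.48 without IGF2BP3 KD replicate 1 to -0.15 without IGF2BP3 KD replicate 2. *CXCL3* (GROγ) had 221, 317 and 172 counts in control and 208, 201 and 149 counts in IGF2BP3 KD libraries, or 3.23, 4.55 and 2.94 against 3.85, 3.24 and 2.36 CPM. Control replicate 2 was its highest library and the groups overlapped. Its log2 fold change was -0.18 (SE 0.23, 95% interval -0.69 to 0.32), and it was 0.03 without control replicate 2. By the same edgeR test, the adjusted p was 0.558 for *CXCL1* and 0.659 for *CXCL3*.

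The counts of *CXCL1*, *CXCL2* and *CXCL3* carry a further uncertainty, because the genes are near-identical in their coding sequence. Over 324 aligned bases, *CXCL2* and *CXCL3* were 94.4% identical, *CXCL1* and *CXCL2* 93.5% and *CXCL1* and *CXCL3* 90.7%, and the longest runs shared by their transcripts were 97, 77 and 55 bases. No run of 150 bases, the length of a read, was shared. Summed to 1 feature before the fit, the 3 genes gave 6.61, 7.75 and 6.22 CPM in control and 6.74, 5.14 and 4.49 CPM in IGF2BP3 KD libraries. The groups overlapped through IGF2BP3 KD replicate 1, and the sum had a log2 fold change of -0.33 (SE 0.17, adjusted p = 0.209 by the same edgeR test). With *CXCL8* added, the sum of the 4 neutrophil chemokines was 9.77 to 11.3 CPM in control and 7.28 to 8.45 CPM in IGF2BP3 KD libraries, without overlap, a sum for which no test was run. All 4 fold changes were below 0 with TMM and RLE scaling and in DESeq2, and none of the 4 passed the test in these 3 fits.

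*CXCL16* (ENSG00000161921, chromosome 17, 4733533 to 4739928, minus strand) encodes a membrane-bound chemokine, the ligand of CXCR6. It had 2103, 2239 and 1909 counts in control and 1780, 2157 and 2137 in IGF2BP3 KD libraries, or 30.7, 32.1 and 32.6 against 33.0, 34.7 and 33.9 CPM. The IGF2BP3 KD libraries lay just above the control libraries. The log2 fold change was 0.09 (SE 0.06, adjusted p = 0.315 by edgeR's quasi-likelihood test), and its 95% interval ran from -0.03 to 0.21. *CXCL16* shares 172 exonic bases with *MED11* and *ZMYND15* on the opposite strand, and since the strand setting of the counting is not given in the sources used here, counts from those bases are uncertain.

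*CCL20* (ENSG00000115009, chromosome 2, 227805739 to 227817564, plus strand) encodes the ligand of CCR6, which attracts dendritic cells and Th17 cells. It had 12, 14 and 18 counts in control and 0, 12 and 28 counts in IGF2BP3 KD libraries, or 0.175, 0.201 and 0.307 against 0, 0.193 and 0.444 CPM. The IGF2BP3 KD libraries held both the lowest and the highest value of all 6, and a count of 0 at this depth allows up to 0.0562 CPM (3 counts, counting error only). The log2 fold change of -0.08 (SE 0.94) had a 95% interval from -2.14 to 1.98 and an adjusted p of 0.973 by edgeR's quasi-likelihood test. With few counts and this spread between libraries, a change of *CCL20* could not be resolved.

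*IL18* (ENSG00000150782, chromosome 11, 112143253 to 112164096, minus strand) encodes a cytokine of the IL-1 family that epithelial cells store as an inactive precursor, later cleaved by caspase-1. It had 1008, 926 and 858 counts in control and 827, 869 and 953 in IGF2BP3 KD libraries. Levels were 14.7, 13.3 and 14.6 CPM in control and 15.3, 14 and 15.1 CPM in IGF2BP3 KD libraries, with overlap between the groups. The log2 fold change was 0.06 (SE 0.08, adjusted p = 0.693 by the same test), with a 95% interval from -0.12 to 0.24. It lay between 0.0097 (without control replicate 2) and 0.098 (without IGF2BP3 KD replicate 2) with 1 library left out. *CXCL16* and *IL18* had the narrowest intervals among the genes that did not pass.

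*NFKBIA* (ENSG00000100906, chromosome 14, 35401079 to 35404749, minus strand) encodes IκBα, the inhibitor that holds NF-κB in the cytoplasm and is itself made on NF-κB activation. It had 2138, 2070 and 1898 counts in control and 1453, 1598 and 1625 counts in IGF2BP3 KD libraries. Levels were 31.2, 29.7 and 32.4 CPM in control and 26.9, 25.7 and 25.8 CPM in IGF2BP3 KD libraries. All 3 IGF2BP3 KD libraries were lower than all control libraries, and replicates varied little, with coefficients of variation of 4.34% and 2.56%. The mean fell from 31.1 ± 1.35 to 26.1 ± 0.671 CPM (SD, n = 3), a log2 fold change of -0.25 (SE 0.06, 95% interval -0.38 to -0.12), or 0.840 times the control level. The adjusted p of edgeR's quasi-likelihood test was 0.0118. The call held in 10 of 11 other fits and was lost without control replicate 3, its highest control library (log2 fold change -0.22, adjusted p = 0.0562).

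*TNFAIP3* (ENSG00000118503, chromosome 6, 137867214 to 137883314, plus strand) encodes A20, a ubiquitin-editing enzyme that shuts off signalling to NF-κB. It had 411, 499 and 341 counts in control and 470, 433 and 417 in IGF2BP3 KD libraries, or 6.0, 7.16 and 5.82 against 8.71, 6.97 and 6.62 CPM. IGF2BP3 KD replicate 1 was its highest library, and control replicate 2 lay above the other IGF2BP3 KD libraries. The log2 fold change was 0.23 (SE 0.14, 95% interval -0.09 to 0.55, adjusted p = 0.325 by edgeR's quasi-likelihood test), and it was 0.098 without IGF2BP3 KD replicate 1 (adjusted p = 0.741). The gene shares 95 exonic bases with *WAKMAR2* on the opposite strand.

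*BIRC3* (ENSG00000023445, chromosome 11, 102317484 to 102339403, plus strand) encodes cIAP2, a ubiquitin ligase that joins TNF receptor complexes and restrains cell death. It had 1326, 1325 and 1093 counts in control and 1341, 1496 and 1477 counts in IGF2BP3 KD libraries. After scaling, levels were 19.4, 19.0 and 18.7 CPM in control and 24.8, 24.1 and 23.4 CPM in IGF2BP3 KD libraries. The groups were well apart, with coefficients of variation of 1.84% in control, the lowest of the 10, and 2.93% in IGF2BP3 KD. The mean rose from 19.0 ± 0.349 to 24.1 ± 0.707 CPM (SD, n = 3), a log2 fold change of 0.34 (SE 0.06, 95% interval 0.21 to 0.48), or 1.27 times the control level. The adjusted p of edgeR's quasi-likelihood test was 0.0024, and the call held in all 11 other fits, with log2 fold changes between 0.32 and 0.36 when each library was left out in turn. *BIRC3* shares 126 exonic bases with an unnamed gene (ENSG00000288528) on the opposite strand.

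**Figure D3:**
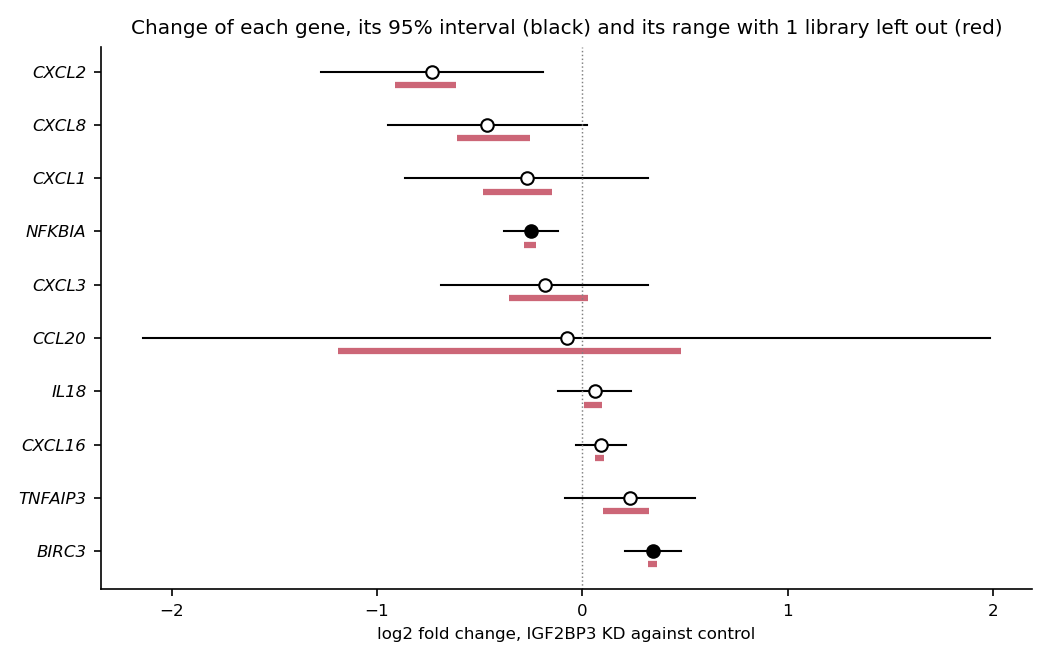
Log2 fold change of each of the 10 genes, IGF2BP3 KD against control (x axis), ordered by value. Filled circles passed the test at an adjusted p of 0.05, black lines are 95% intervals and red bars are the range of the fold change with 1 library left out at a time. NFKBIA (-0.25) and BIRC3 (0.34) have narrow intervals away from 0, and CCL20 has the widest, from -2.14 to 1.98.

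The genes around the 10 in the pathway were described through 10 lists of 159 genes, of which 158 were found by symbol and 113 were tested. In IGF2BP3 KD cells 12 (10.6%) of these 113 fell and 11 (9.73%) rose, against 10.6% and 9.87% of all tested genes, and their median log2 fold change was -0.03. The pathway as listed thus moved in both directions at the rate of the transcriptome. The adjusted p-values of the next paragraphs come from the same edgeR test, adjusted over all tested genes. Counts per list are to be read beside 10.6% lower and 9.87% higher over all tested genes, and no list was tested as a set.

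The receptors that bind the secreted members were low or absent. CXCR2, the main receptor of the GRO chemokines, had no count in any library, and *CXCR1* and *IL18RAP* had at most 5 counts per library and were not tested. *CXCR6*, the receptor of CXCL16, was at 0.465 ± 0.135 CPM in control and 0.572 ± 0.0573 CPM in IGF2BP3 KD cells (SD, n = 3), with a log2 fold change of 0.30 (SE 0.39) that ran from 0.13 without control replicate 1 to 0.54 without control replicate 3. *CCR6*, the receptor of CCL20, was the most abundant of them, at 4.86, 2.37 and 3.41 CPM in control and 4.28, 5.59 and 5.38 CPM in IGF2BP3 KD libraries. Control replicate 1 of *CCR6* lay above IGF2BP3 KD replicate 1, and the log2 fold change was 0.52 (SE 0.24, adjusted p = 0.165). Without control replicate 1 it was 0.81 (adjusted p = 0.0284), and without control replicate 2 it was 0.29 (adjusted p = 0.435). *IL18R1*, the ligand-binding chain of the IL-18 receptor, was at 2.08 ± 0.389 and 2.31 ± 0.183 CPM (SD, n = 3) with a log2 fold change of 0.15 (SE 0.21).

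Of the 5 Rel and NF-κB subunits, 1 was lower and none was higher. *NFKB1*, which encodes the p105 precursor of p50, was at 56.1, 56.5 and 53.4 CPM in control and 45.2, 44.9 and 48.8 CPM in IGF2BP3 KD libraries. The groups did not overlap, and the log2 fold change was -0.26 (SE 0.05, adjusted p = 0.0051). *RELA*, which encodes the p65 subunit, was 53.4 ± 1.58 CPM in control and 49.3 ± 1.65 CPM in IGF2BP3 KD cells (SD, n = 3), without overlap, but its log2 fold change of -0.12 (SE 0.05) did not pass (adjusted p = 0.142). *REL*, *RELB* and *NFKB2* had log2 fold changes of -0.04, 0.02 and 0.05 with SE of 0.07, 0.10 and 0.08.

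Among 13 tested genes of the IκB family and partners of A20, 2 (15.4%) were lower and 3 (23.1%) were higher. Over all tested genes these shares were 10.6% and 9.87%. Their median log2 fold change was -0.03. *NFKBIZ*, which encodes the nuclear IκB protein IκBζ, fell from 27.6 ± 0.514 to 21.5 ± 0.698 CPM (SD, n = 3, log2 fold change -0.36, SE 0.06, adjusted p = 0.0013). *OTUD7B*, which encodes the deubiquitinase Cezanne, fell from 75.9 ± 2.74 to 63.5 ± 0.203 CPM (log2 fold change -0.26, SE 0.04, adjusted p = 0.0016). *RNF11*, a partner of A20 in its ubiquitin-editing complex, rose from 29.7 ± 1.15 to 50.4 ± 0.922 CPM (log2 fold change 0.76, SE 0.05, adjusted p = 3.2e-06). *ITCH*, a ubiquitin ligase of the same complex, and *CYLD*, a deubiquitinase that dampens NF-κB signalling, had log2 fold changes of 0.20 (SE 0.05, adjusted p = 0.0164) and 0.31 (SE 0.07, adjusted p = 0.0124). The call of *ITCH* was lost without control replicate 2 or 3 or IGF2BP3 KD replicate 1 or 2 (adjusted p 0.0561 to 0.0875), and that of *CYLD* without control replicate 3 or IGF2BP3 KD replicate 2 or 3 (adjusted p 0.0574 to 0.0626). In the full set, *NFKBIA*, *NFKBIZ* and *OTUD7B* were lower while *RNF11*, *ITCH* and *CYLD* were higher, so the called genes did not move one way.

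Of 28 tested kinases, ubiquitin ligases and adaptors, 1 was lower and 1 higher. *XIAP*, which encodes an inhibitor of caspases of the same family as cIAP2, was at 156, 152 and 148 CPM in control and 101, 90.8 and 98.2 CPM in IGF2BP3 KD libraries. Its log2 fold change of -0.65 (SE 0.04, adjusted p = 2.4e-06) is opposite in sign to that of *BIRC3*. *MYD88*, the adaptor of Toll-like and IL-1 receptors, had a log2 fold change of 0.19 (SE 0.06, adjusted p = 0.0369), a call lost without IGF2BP3 KD replicate 2 or 3 or any of the control replicates (adjusted p 0.0539 to 0.155). Of 16 tested upstream receptors, 2 (12.5%) were lower and 4 (25%) were higher, where 10.6% and 9.87% of all tested genes were. The TNF receptor family members *TNFRSF12A* and *TNFRSF10B* fell by 0.58 (SE 0.07) and 0.29 (SE 0.03) on the log2 scale, with adjusted p of 9.3e-05 and 1.0e-04. *TNFRSF1B*, which encodes TNF receptor 2, *IL17RC*, a chain of the IL-17 receptor, and *TLR4*, the receptor of lipopolysaccharide, rose by log2 fold changes of 0.69 (SE 0.06), 0.68 (SE 0.12) and 0.38 (SE 0.05), with adjusted p of 1.3e-05, 0.0022 and 5.2e-04. Of 10 listed upstream ligands, 4 were tested (*IL1B*, *IL33*, *TNFSF10* and *TNFSF13B*) and none passed. *TNF* had no count in any library and was not tested.

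Around *IL18*, 1 (11.1%) of 9 tested genes of its processing and of the inflammasome was lower and 3 (33.3%) were higher. Over all tested genes these shares were 10.6% and 9.87%, and the list is small. The median of the 9 on the log2 scale was 0.21. *NLRC4*, an inflammasome sensor, had 57, 43 and 46 counts in control and 11, 18 and 15 counts in IGF2BP3 KD libraries, a log2 fold change of -1.60 (SE 0.39, adjusted p = 0.0140) at a low level of 0.745 CPM in control. Without control replicate 1 its adjusted p was 0.0546. *PYCARD*, the adaptor ASC, *GSDMD*, the pore-forming gasdermin D, and *CASP5*, an inflammatory caspase, had log2 fold changes of 0.38 (SE 0.10), 0.21 (SE 0.05) and 0.47 (SE 0.14), with adjusted p of 0.0175, 0.0191 and 0.0329. The call of *PYCARD* was lost without control replicate 2 or IGF2BP3 KD replicate 2 (adjusted p 0.0724 and 0.0913). *GSDMD* and *CASP5* were called without control replicate 2, and lost their calls without any other library (adjusted p 0.059 to 0.0654 and 0.0635 to 0.12). None of 5 tested other chemokines passed, 2 of them had log2 fold changes below 0, and their median was 0.33. The nearest to the threshold was *CX3CL1*, at 16, 49 and 49 counts in control and 0, 8 and 12 in IGF2BP3 KD libraries. Its log2 fold change was -2.42 (SE 0.83, 95% interval -4.24 to -0.60, adjusted p = 0.0630), at few counts.

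Of 21 tested other target genes of NF-κB, 2 (9.52%) were lower and none was higher, where 10.6% and 9.87% of all tested genes were. The median of the 21 was -0.07 on the log2 scale. *LCN2*, which encodes the iron-scavenging lipocalin 2, was at 240, 219 and 236 CPM in control and 187, 178 and 174 CPM in IGF2BP3 KD libraries (log2 fold change -0.37, SE 0.04, adjusted p = 7.8e-05). *TNFAIP8* had a log2 fold change of -0.24 (SE 0.08, adjusted p = 0.0433), and lost its call without any of the 6 libraries (adjusted p 0.0531 to 0.151). Of 9 genes listed around AU-rich elements, 3 (33.3%) were lower and none was higher, with a median of -0.11. Over all tested genes these shares were 10.6% and 9.87%, and the list is small. The list holds genes of proteins that bind RNA and also the kinase gene *MAPKAPK2*. *ZFP36L2*, which promotes decay of messages with such elements, fell from 221 ± 3.43 to 189 ± 3.56 CPM (SD, n = 3, log2 fold change -0.23, SE 0.03, adjusted p = 2.3e-04). *RC3H2*, which encodes Roquin-2, and *HNRNPD*, which encodes AUF1, had log2 fold changes of -0.15 (SE 0.03, adjusted p = 0.0082) and -0.11 (SE 0.04, adjusted p = 0.0444). *HNRNPD* kept its call without control replicate 3 and lost it without any other library (adjusted p 0.0651 to 0.142).

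**Figure D4:**
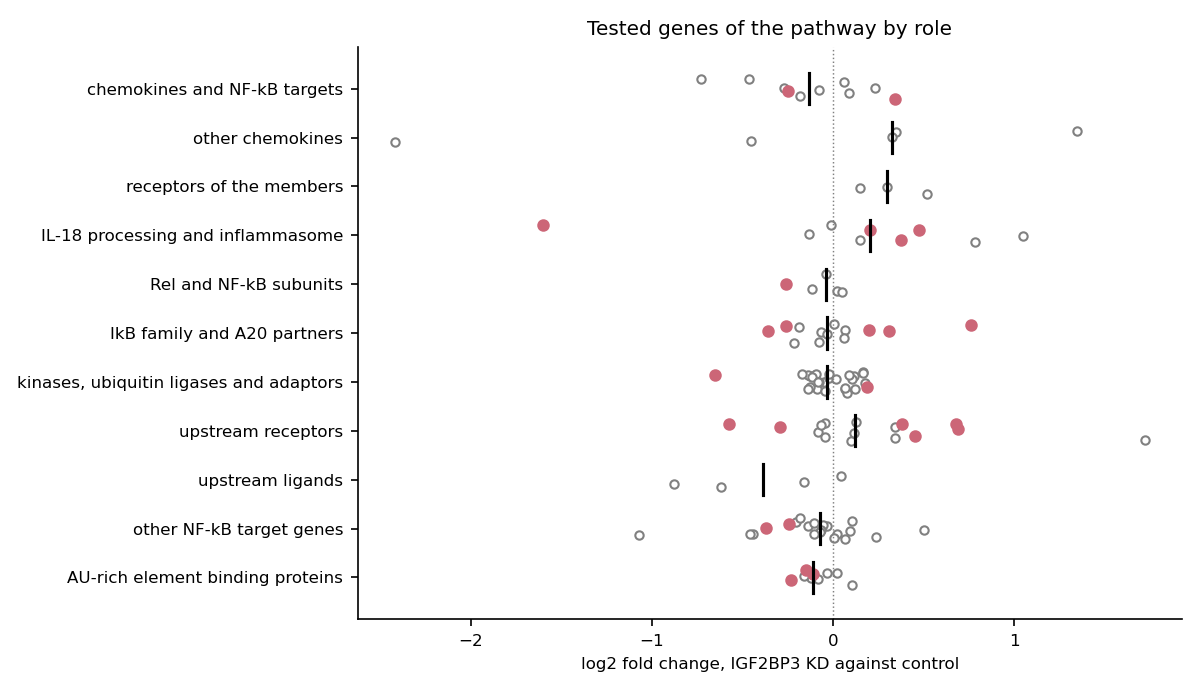
Log2 fold change, IGF2BP3 KD against control (x axis), of each tested gene of the 10 genes (top row) and of the 10 pathway lists. Filled red circles passed the test at an adjusted p of 0.05, open grey circles did not, vertical black bars are medians and vertical scatter within a row carries no meaning. In the lists, 12 genes were lower and 11 higher, and the 28 kinases, ubiquitin ligases and adaptors lie between -0.65 and 0.19.

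In earlier results of these data, the word GATTACT in the 3′ UTR went with lower and ACACATC with higher transcripts, and since the words were found on these libraries they are not independent evidence here. GATTACT was in the 3′ UTR of none of the 10 genes, where 7.79% of tested coding genes hold it. ACACATC was in *CXCL3* and *BIRC3*, where 9.65% of tested coding genes hold it, at the letters in capitals.
BIRC3: acacggggtcaACACATCataaaatctat
CXCL3: ggaatgtatgtACACATCtattttttata
Of these, *BIRC3* was higher and *CXCL3* did not pass the test, with a log2 fold change of -0.18.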

How the data were processed

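RNA-seq of OE-19 cells covered 3 control and 3 IGF2BP3 KD libraries, grouped by their labels. The authors made directional poly(A) libraries, sequenced both ends over 150 bases, used hisat2 (default settings, hg38) and deposited raw featureCounts counts per gene. The tool fastp is named in the submitters' processing notes. Versions, the annotation release and the strand setting are not given in the sources used here. Of 60612 entries, 132 repeats of 44 identifiers were left out.

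The main test was edgeR's quasi-likelihood fit (edgeR 4.0.16, R 4.3.3) of 3 against 3 libraries with no block, on TMM scaling, after filterByExpr (minimum count 10, minimum total 15). P-values of 19778 genes were adjusted by Benjamini-Hochberg and read at 0.05. The SE is the log2 fold change divided by the root of F, and the 95% interval uses the t distribution with the 10.9 degrees of freedom of the moderated fit. An exact permutation test of 3 against 3 libraries cannot give a two-sided p below 0.1. The chi-square per degree of freedom of library pairs (genes averaging 50 counts or more) was 9.86 to 17.6 within groups, above sampling noise, so no library was counted as a duplicate. The fit was tested on simulated data.

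The 10 genes were taken by symbol, and they and the pathway lists were chosen with earlier results of these data known. All 10 are named with every library. Of the lists, genes at an adjusted p under 0.05 are named, at most the 3 smallest p per list and direction, besides the Rel subunits, the receptors of the 10 genes and *IGF2BP3*. *CX3CL1*, *MAPKAPK2*, *TNF* and the tested upstream ligands are named in addition. Positions, UTRs and overlaps come from GENCODE v44, using 1 transcript per gene, and promoters from RefSeq on GRCh38.p14. The alternatives were RLE scaling, DESeq2 1.42.0, a filter of at least 10 counts per library, no filter, each library left out, the replicate block, and *CXCL1*, *CXCL2* and *CXCL3* summed. Levels per kb with the length of 1 transcript were added after the data were seen. Sequences and figures used Python 3.11.15 with pandas 2.3.3, Biopython 1.88 and matplotlib 3.10.9.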

Additional observations from a re-analysis of the deposited data

How the results depend on the processing

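Of the 10 genes, 1 was lower and 1 higher in the reported fit and with DESeq2, RLE scaling and no low-count filter. With at least 10 counts in every library, 2 were lower, *CXCL2* in addition to *NFKBIA*. With 1 library left out, 0 to 2 of the 10 were lower (0 without control replicate 3, 2 without IGF2BP3 KD replicate 1) and 1 was higher each time. Of the pathway genes, 11 to 13 were lower with 1 library left out, and 5 to 9 were higher in place of 11 (6 without control replicate 3, 5 without IGF2BP3 KD replicate 2 and 7 without IGF2BP3 KD replicate 3). Without a low-count filter, 7 pathway genes were higher, in a fit of 38462 genes. Over 108 values of the 10 genes in other fits, the sum of *CXCL1*, *CXCL2* and *CXCL3* not counted, 102 kept direction and side of the threshold. With 1 library left out, the log2 fold change turned sign for *CCL20* (-1.19 to 0.48, with 0.18 without control replicate 3 and 0.48 without IGF2BP3 KD replicate 1), *CXCL3* (-0.36 to 0.028, without control replicate 2), *RELB* (-0.042 to 0.066, without control replicate 1 and, at -0.024, IGF2BP3 KD replicate 2), *IL18R1* (-0.0017 to 0.24, without control replicate 2), and *NFKB2* (-0.027 to 0.13) and *REL* (-0.10 to 0.036), both without IGF2BP3 KD replicate 3. None of these 6 passed the test. Of the named pathway genes, 9 of 12 lower and 4 of 10 higher kept their call in every alternative, and *CASP5*, *CYLD*, *GSDMD*, *ITCH*, *MYD88*, *PYCARD*, *HNRNPD*, *NLRC4* and *TNFAIP8* lost it in at least 1. The cause was not tested. Same-numbered libraries did not deviate together (correlations of -0.0017, -0.03 and 0.0092), so the numbers were not taken to pair them. With the replicate block, 1 of the 10 genes was lower and 1 higher, and 14 and 12 pathway genes. *CCL20*, *CXCL1*, *CXCL2*, *CXCL3* and *CXCL8* had counts under 320 per library. Their coefficients of variation within a group ran from 4.69% (*CXCL8*, control) to 105% (*CCL20*, IGF2BP3 KD). How much of this spread is counting error was not tested.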
